A study of Mus musculus with 4 samples.

Results

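The 9 genes described here encode subunits and partners of the potassium and sodium channels that shape the electrical activity of heart muscle: Kcnj2, Kcnj3, Kcnj5, Kcnj11, Kcnip2, Kcnd2, Kcna5, Kcnq1 and Scn4b. They were chosen by symbol among the 19465 genes listed in every count table, and all 9 were found. Visium spatial transcriptomics had been run on 4 formalin-fixed, paraffin-embedded mouse heart sections, cut at 5 µm, with 1 section per library. Each measured spot is a small area of tissue that can hold several cells. All mice were wild type FVB/NJ, had been immunized with MyHCα peptide (MyHCα is the alpha heavy chain of cardiac myosin), and had received antibodies against PD-1 and CTLA-4, 2 immune checkpoint inhibitors (ICIs). In 2 sections the mice had also been given an IL-17A neutralizing antibody. The other 2 sections were from mice given the ICIs alone, in which the labels record myocarditis; for the antibody group they record that it was mitigated. Each group has a section from batch 1 and a section from batch 2. The labels do not tie sections to individual animals. The edgeR p-values below rest on the spread between these sections, with information on spread shared over all genes. The authors' own p-values, given per gene and section, do not measure that spread. No untreated heart was analysed here. The question asked of these genes was whether their transcripts differed with IL-17A neutralization and around immune infiltrates, and how much of that went with the amount of muscle transcript.

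Cardiac muscle cells repolarize through several potassium currents. Inward rectifiers of the Kir family hold the resting potential (Kir2.1, from Kcnj2), answer acetylcholine in atrium and nodes (Kir3.1 and Kir3.4, from Kcnj3 and Kcnj5) or open when ATP runs low (Kir6.2, from Kcnj11). In the mouse ventricle the fast transient outward current is carried by Kv4 channels (Kv4.2, from Kcnd2) with their partner KChIP2 (from Kcnip2), and Kv1.5 (from Kcna5) and Kv7.1 (from Kcnq1) carry other outward currents. Scn4b encodes the beta 4 subunit, which modifies the gating of sodium channels. Loss of several of these transcripts is a known feature of stressed or failing myocardium.

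The antibody sections held 47882576 and 33005923 UMIs (unique molecular identifiers, counts of captured molecules) over 2604 and 2585 spots, and the ICI-alone sections held 73167202 and 66255242 UMIs over 2503 and 3052 spots. Summed over a section, the members had between 531 UMIs (Scn4b, ICI alone, batch 2) and 11790 UMIs (Kcnip2, antibody, batch 1). The sarcomere list (19 of 20 listed contractile genes are in the files) took 8.43% and 7.17% of the UMIs in the antibody sections, against 5.63% and 3.86% in the ICI-alone sections. Ventricular genes (4 of 4 listed) summed to 17226 and 13412 CPM (counts scaled to a common library total) in the antibody sections and 9213 and 5005 CPM in the ICI-alone sections. The antibody section of batch 2 stood apart in its anatomy: 163 of its spots (6.31%) were rich in atrial transcripts, with over 1% of UMIs on 5 atrial genes, and no such spot was found in the other 3 sections. For several results, among them results of Kcnj3, Kcnj5 and Kcnj11, the value without those spots is given as well. Not every value that those spots moved is given both ways.

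Over whole sections, Kcnj2, Kcnj3 and Kcnd2 were higher with the antibody, and the other 6 members did not pass the test. The 3 members stand against 3.03% of all 18817 genes tested that passed in the higher direction (11.8% passed in either direction). The test was edgeR's quasi-likelihood test on UMIs summed per section with Benjamini-Hochberg adjustment over all genes at 0.05, and levels are CPM after TMM scaling. With batch as a block, 6 members were higher, against 8.08% of all genes, and Kcnip2, Kcnj11 and Scn4b joined the list. The block leaves fewer degrees of freedom for the spread of each gene, so those p-values lean more on spread shared over all genes. In bulk sums like these, fewer muscle cells and less RNA per muscle cell cannot be told apart. Sarcomere transcripts also took a larger share in both antibody sections, with a median log2 fold change of 0.52 over the sarcomere list against 0.08 over all genes tested. Of the 19 sarcomere genes tested, 0 passed in the higher direction and 1 in the lower. The fibroblast list and the summed leukocyte panel lay lower in the antibody sections. The fibroblast list (8 of 8 markers) summed to 2951 and 3252 CPM with the antibody and to 9422 and 21587 CPM with ICIs alone, and the leukocyte panel (20 of 20) to 1510 and 1721 CPM against 2595 and 3429 CPM. The T cell list (7 of 7 markers, all of them also in that panel) lay the other way, at 90.2 and 100.1 CPM with the antibody and 74.2 and 69.7 CPM with ICIs alone, and none of its genes passed the test. No marker of these 3 lists was at 0 in any section, and the part of fibroblasts and leukocytes in the channel results was not tested.

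Among the inward rectifiers, Kcnj2 was measured at 100.4 and 78.4 CPM in the antibody sections, against 40.8 and 30.6 CPM in the ICI-alone sections. The groups do not overlap, and the gap was of like size in both batches, with log2 ratios of 1.30 in batch 1 and 1.36 in batch 2. The fitted log2 fold change was 1.33 ± 0.20 (SE), with an adjusted p of 0.0217.

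Kcnj3, whose channel mediates vagal slowing, lay at 56.9 and 78.5 CPM with the antibody and at 22.0 and 10.4 CPM with ICIs alone. Its log2 fold change was 2.06 ± 0.34 (adjusted p = 0.0225), the greatest among the members with all spots in. The atrial-rich spots held 1573 of the 2767 Kcnj3 UMIs of the antibody section of batch 2. Without those spots Kcnj3 was at 36.7 CPM in this section, still above both ICI-alone sections, and the log2 fold change was 1.53 (adjusted p = 0.0399). The log2 ratio was 1.37 in batch 1 and 2.91 in batch 2, or 1.82 in batch 2 without those spots. In the atrial-rich spots Kcnj3 stood at 680.3 CPM, against 38.9 CPM in the rest of that section, and its partner Kcnj5 at 93.0 CPM, against 29.0 CPM. Kcnip2 had the reverse order there, with 86.9 CPM in atrial-rich spots and 141.3 CPM elsewhere, and so had Scn4b, with 26.0 and 45.2 CPM.

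Kcnj5 itself was at 33.7 and 31.3 CPM in the antibody sections and at 29.8 and 17.2 CPM in the ICI-alone sections, a difference that did not pass the test (log2 0.47, adjusted p = 0.206). The pore subunit of the ATP-sensitive channel, Kcnj11, was at 190.5 and 139.6 CPM with the antibody and at 110.2 and 63.6 CPM with ICIs alone. Its values do not overlap, but the adjusted p was 0.0724 without the batch block and 0.0169 with it.

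Of the transient outward current genes, Kcnd2 lay at 29.2 and 37.4 CPM in the antibody sections, against 16.4 and 9.05 CPM in the ICI-alone sections. The log2 fold change was 1.39 ± 0.28 (adjusted p = 0.0299), with log2 ratios of 0.84 in batch 1 and 2.05 in batch 2. Without the antibody section of batch 2 the adjusted p of Kcnd2 was 0.0655, whereas Kcnj2 and Kcnj3 passed whichever section was left out. Leaving out only the atrial-rich spots of that section gave Kcnd2 a log2 fold change of 1.39 with an adjusted p of 0.0299. Kcnip2 had the same log2 fold change as Kcnd2 (1.39) and a wider spread, with 245.8 and 128.7 CPM in the antibody sections and 99.7 and 43.5 CPM in the ICI-alone sections. It did not pass without the block (adjusted p = 0.0748) and passed with it (0.00963).

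Scn4b was at 59.8 and 41.1 CPM with the antibody and at 25.2 and 7.82 CPM with ICIs alone. The ICI-alone section of batch 2 was the lowest by far, and the adjusted p was 0.0684, or 0.0159 with the batch block. Kcna5 was at 15.0 and 20.6 CPM with the antibody and at 13.5 and 11.1 CPM with ICIs alone (log2 0.53, adjusted p = 0.114). With all spots in, Kcnq1 alone among the members overlapped between the groups. Its levels were 57.6 and 58.9 CPM with the antibody and 74.3 and 52.5 CPM with ICIs alone (log2 -0.12, adjusted p = 0.656 by edgeR's quasi-likelihood test). Without the atrial-rich spots Kcnj5 overlapped as well, at 33.6 and 27.3 CPM with the antibody and 29.7 and 17.2 CPM with ICIs alone. Taking overlap alone with all spots in, 8 of the 9 members were above in both antibody sections, as were 35.7% of the 19165 genes with at least 10 UMIs.

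**Figure D1:**
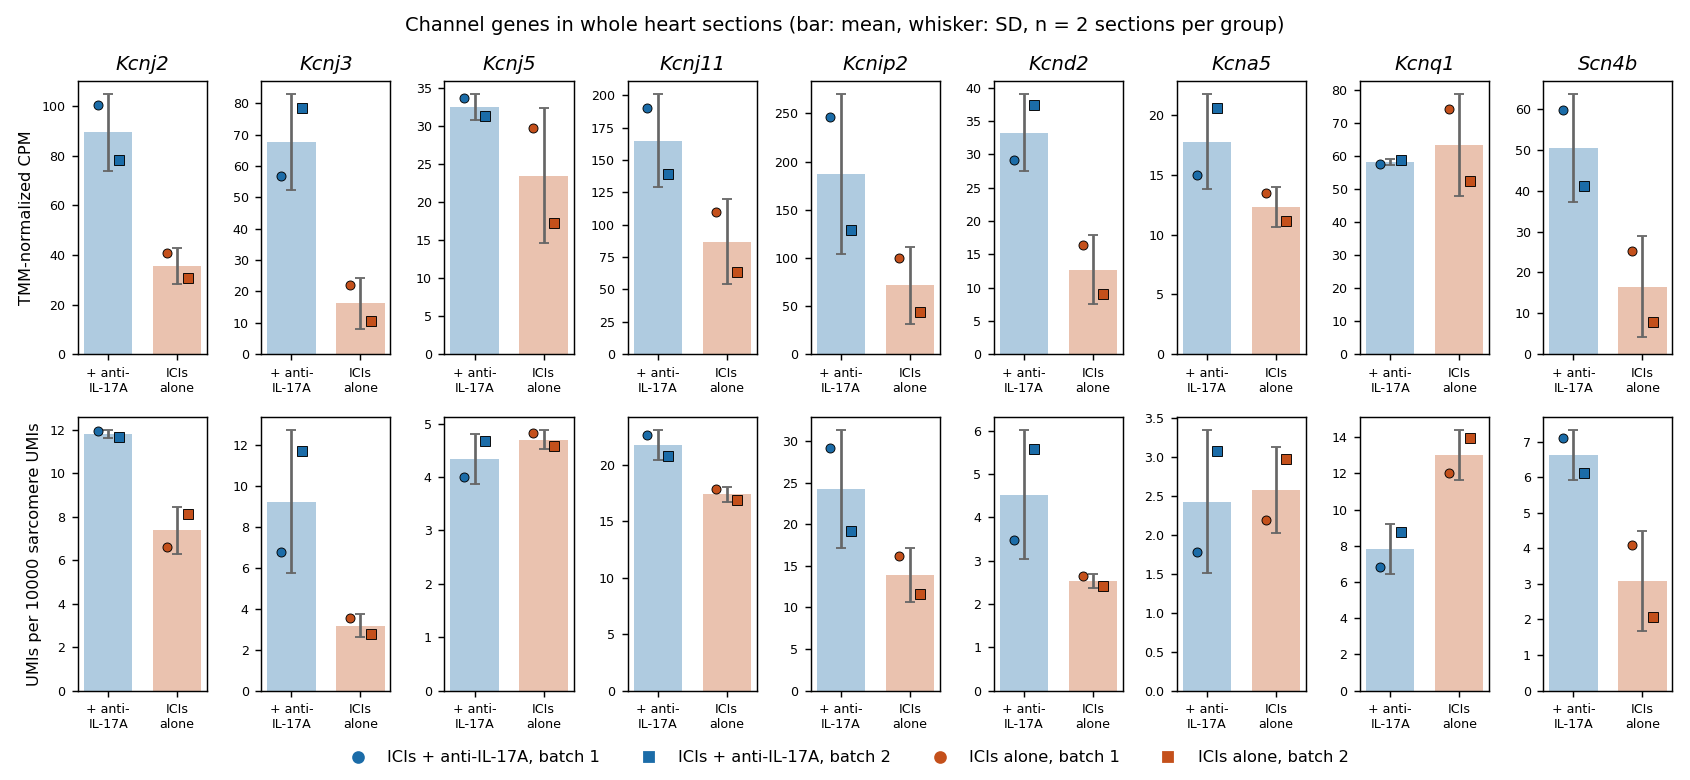
Levels of the 9 channel genes in each whole section, as TMM-normalized CPM (top) and as UMIs per 10000 UMIs of the sarcomere list (bottom), with ICIs plus the IL-17A antibody left of ICIs alone. Bars are means and whiskers SDs of 2 sections per group, points are sections (circle, batch 1; square, batch 2). Kcnj2 separates the groups on both scales, while Kcnq1 overlaps in CPM and lies lower with the antibody per sarcomere UMI.

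Which cells held the channel transcripts was not tested. To set the channels against muscle transcript, UMIs of each member were divided by the UMIs of the sarcomere list in the same section. They are given per 10000 sarcomere UMIs. On that scale most of the genome lay lower with the antibody (median log2 fold change -0.58), where sarcomere transcripts also took a larger share. Kcnj3 alone among the members was higher in the test (log2 1.54 ± 0.46, adjusted p = 0.0146 by edgeR's quasi-likelihood test), where 0.138% of all genes passed in that direction. Without the atrial-rich spots Kcnj3 no longer passed (log2 0.93, adjusted p = 0.160). With batch as a block, Kcnj2, Kcnj3, Kcnip2, Kcnd2 and Scn4b were higher and Kcnq1 was lower, against 1.04% of all genes higher and 40.7% lower, and the same 6 members passed with the block and without the atrial-rich spots.

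Per 10000 sarcomere UMIs, Kcnj2 was at 11.9 and 11.7 in the antibody sections and at 6.61 and 8.13 in the ICI-alone sections. The antibody sections thus held about the same amount of Kcnj2 per unit of sarcomere transcript, and both ICI-alone sections held less. The fitted log2 difference was 0.68 ± 0.44 (adjusted p = 0.308, or 0.0273 with the batch block). Without the block, the SEs of the members on this scale lay between 0.42 (Kcnj11) and 0.50 (Kcna5). They follow the spread shared over all genes more than that of each gene. Scn4b was at 7.11 and 6.12 per 10000 with the antibody and at 4.08 and 2.08 with ICIs alone (log2 1.10 ± 0.47, adjusted p = 0.102, or 0.000365 with the block). Kcnip2 stood at 29.2 and 19.2, against 16.1 and 11.6 (adjusted p = 0.194, or 0.00882 with the block), and Kcnd2 at 3.47 and 5.57, against 2.65 and 2.41 (adjusted p = 0.249, or 0.0212 with the block). Kcnj3 was at 6.77 and 11.7 with the antibody and at 3.56 and 2.78 with ICIs alone, and at 5.36 in the antibody section of batch 2 once its atrial-rich spots were left out.

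Kcnj11 was closer between the groups, at 22.6 and 20.8 per 10000 in the antibody sections and 17.8 and 16.9 in the ICI-alone sections (log2 0.32 ± 0.42, adjusted p = 0.716). Kcnj5 (4.01 and 4.67 with the antibody, 4.82 and 4.58 with ICIs alone) and Kcna5 (1.78 and 3.07, against 2.18 and 2.96) overlapped. Without the atrial-rich spots Kcnj5 was at 3.99 in the antibody section of batch 2. Both antibody sections then lay below both ICI-alone sections for Kcnj5. Kcnq1 was at 6.85 and 8.78 with the antibody and at 12.02 and 13.97 with ICIs alone (log2 -0.73 ± 0.43, adjusted p = 0.262 by edgeR's quasi-likelihood test, or 0.0162 with the block). With all spots in, Kcnq1 was the only member lower in both antibody sections on this scale. Counted with all spots in, 6 of the 9 members lay above in both antibody sections per sarcomere UMI, as did 4.34% of the 19165 genes. On the same count 1 member lay below in both, as did 52.6% of the genes.

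**Figure D2:**
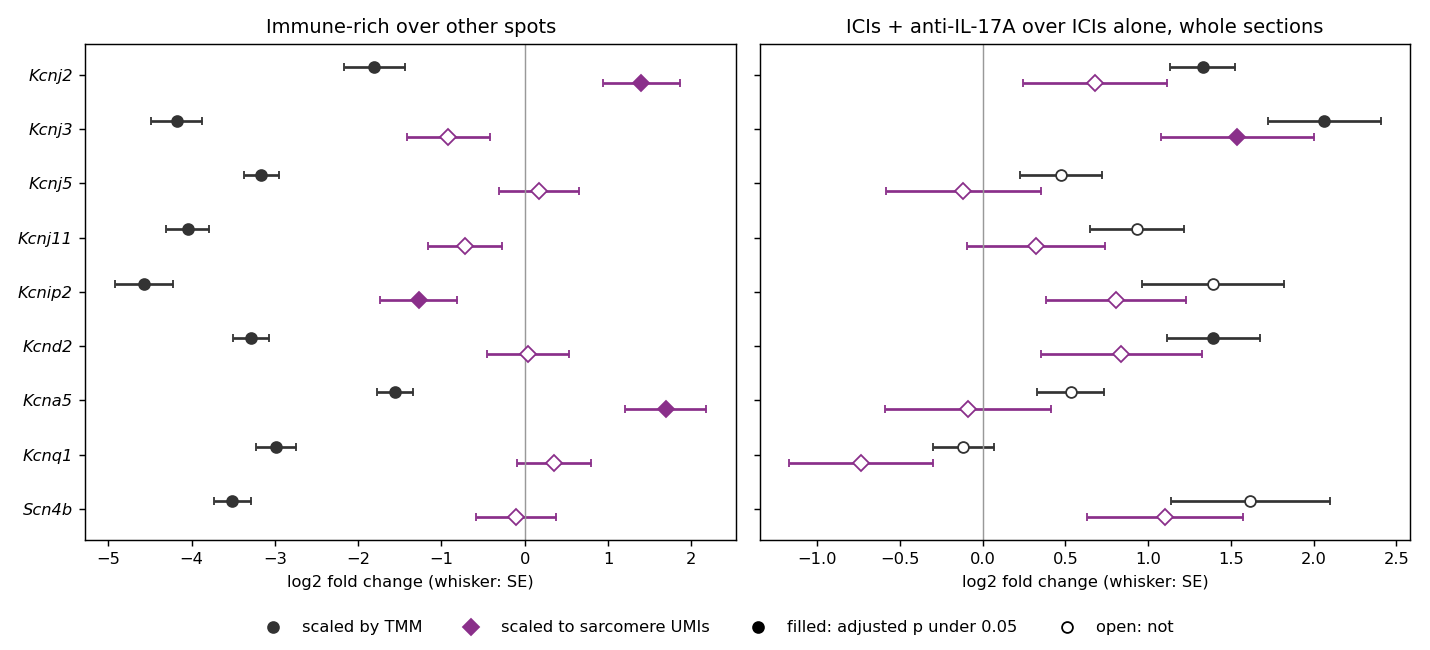
Fitted log2 fold changes with their SE for the 9 members, immune-rich over other spots (left) and ICIs plus antibody over ICIs alone (right), scaled by TMM (circles) or to sarcomere UMIs (diamonds), with filled symbols where the adjusted p is under 0.05. All members lie left of 0 in immune-rich spots under TMM. Of the filled diamonds in the left panel, those of Kcnj2 and Kcna5 lie right of 0 and that of Kcnip2 left. The other diamonds of that panel are open and lie on both sides of 0.

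Within the sections, spots were called immune-rich when they held at least 26 UMIs of the leukocyte panel after thinning to 5000 UMIs, a limit that at most 10% of spots reached with sections weighted equally. There were 194 (7.76%) and 70 (2.75%) such spots in the antibody sections, against 244 (9.79%) and 544 (17.8%) in the ICI-alone sections. All 9 members were lower in immune-rich than in other spots, and all 9 stayed so under every alternative run (section left out, threshold, thinning depth, scaling, filter and atrial-rich spots). Since 53.2% of the 16089 genes tested passed in either direction, 26.3% of them lower, this is a contrast in which much of the transcriptome differs. The spots were chosen for leukocyte transcripts, and sarcomere UMIs were 0.65% and 1.65% of the total in immune-rich spots of the antibody sections and 0.88% and 0.51% in those of the ICI-alone sections, against 9.16%, 7.37%, 6.29% and 4.81% in the other spots of the same sections.

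Kcnip2 differed most. In the antibody sections it was at 3.90 and 9.57 CPM in immune-rich spots, against 309.2 and 143.6 CPM in the other spots. In the ICI-alone sections it was at 8.56 and 2.78 CPM in immune-rich spots, against 126.2 and 63.7 CPM. The log2 fold change was -4.57 ± 0.35 (adjusted p = 4.2e-05, edgeR's quasi-likelihood test with the section as a block). The immune-rich values rest on few molecules, between 14 and 72 Kcnip2 UMIs per section.

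Kcnj3 (log2 -4.18), Kcnj11 (-4.05), Scn4b (-3.51), Kcnd2 (-3.29), Kcnj5 (-3.16) and Kcnq1 (-2.98) followed, each with an SE between 0.21 and 0.31. The smallest differences belonged to Kcnj2 (log2 -1.80 ± 0.37, adjusted p = 0.00385) and Kcna5 (-1.56 ± 0.22, adjusted p = 0.000533). Kcnj2 was at 10.8 and 19.2 CPM in immune-rich spots of the antibody sections and at 18.7 and 21.5 CPM in those of the ICI-alone sections. In the other spots it was at 124.9 and 87.0 CPM with the antibody and at 49.2 and 38.2 CPM with ICIs alone. Kcna5 was at 3.90 and 6.15 CPM in immune-rich spots with the antibody and at 4.75 and 7.17 CPM in those with ICIs alone, against 18.2, 22.8, 16.5 and 14.1 CPM in the other spots of the same sections.

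Set against the sarcomere UMIs of the same spots, the members split. Kcna5 (log2 1.69 ± 0.49, adjusted p = 0.000574) and Kcnj2 (1.40 ± 0.46, adjusted p = 0.00260) were higher in immune-rich spots, Kcnip2 was lower (-1.27 ± 0.46, adjusted p = 0.00602), and the other 6 did not pass. On this scale 96.7% of all genes passed and the median gene was 3.43 higher on the log2 scale, so Kcnj2 and Kcna5 lay below the typical gene, and 15 genes in all passed in the lower direction. Per 10000 sarcomere UMIs, Kcnip2 was at 7.90 and 7.21 in immune-rich spots of the antibody sections and at 9.16 and 5.72 in those of the ICI-alone sections. In the other spots it was at 29.3 and 19.2 with the antibody and at 16.3 and 11.7 with ICIs alone. Kcnj2 was at 21.8 and 14.4 in immune-rich spots with the antibody and at 19.98 and 44.2 in those with ICIs alone, against 11.8, 11.7, 6.34 and 7.04 in the other spots. All 3 calls were lost without the ICI-alone section of batch 2 (adjusted p 0.157 for Kcnj2, 0.0565 for Kcna5 and 0.0506 for Kcnip2), and that of Kcnj2 also without the ICI-alone section of batch 1 (0.0666). At a threshold of 20% of spots Kcnj2 did not pass (log2 0.47, adjusted p = 0.224), and at 5% Kcnip2 did not (log2 -0.60, adjusted p = 0.298).

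The promoters of Kcnj2 and Kcnip2 are shown because both passed on that scale and in opposite directions; Kcna5, the other member that was higher, is not printed. Promoters of 7 of the 9 members are in the RefSeq table (GRCm38.p6, the mm10 assembly), and the 250 bases before the listed start are printed 5′ to 3′ on the gene's strand. Kcnj2 is a protein-coding gene at chr11:111066164-111076825, and its window is chr11:111065914-111066163 on the plus strand. Kcnip2 is a protein-coding gene at chr19:45792346-45816422, and its window is chr19:45816064-45816313 on the minus strand, inside the span of the gene.
Kcnj2: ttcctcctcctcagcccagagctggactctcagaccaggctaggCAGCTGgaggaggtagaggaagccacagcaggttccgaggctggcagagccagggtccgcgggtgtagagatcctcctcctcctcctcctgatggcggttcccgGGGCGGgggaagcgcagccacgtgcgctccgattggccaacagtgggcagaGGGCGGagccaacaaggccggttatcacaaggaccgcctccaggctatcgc
Kcnip2: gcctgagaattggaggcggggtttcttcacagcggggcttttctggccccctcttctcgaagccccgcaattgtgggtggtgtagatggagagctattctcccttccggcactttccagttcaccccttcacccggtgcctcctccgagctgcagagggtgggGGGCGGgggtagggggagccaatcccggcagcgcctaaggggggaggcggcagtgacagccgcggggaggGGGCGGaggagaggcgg
Capitals mark 2 of the 6 motifs searched on both strands, the Sp1-type GC box GGGCGG and the E-box CAGCTG. The GC box occurs 2 times in each window, and 32.7% of the 32851 promoter windows in the table hold it. The E-box occurs 1 time in Kcnj2 and not in the Kcnip2 window, and 4271 of all windows hold it. No match to the GATA motif AGATAA, the MEF2 motif (CTA and TAG with any 4 bases between), the TATA motif TATAAA or the nuclear receptor half-site AGGTCA was found in either window. GC content was 65.6% for Kcnj2 and 66.8% for Kcnip2, against a mean of 53.2% over all windows.

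The size of the immune-rich difference was compared between treatments in a single fit with an interaction term. Kcnj2 was the only member to pass (difference of log2 fold changes -1.94 ± 0.35, antibody minus ICI alone, adjusted p = 0.0328), where 0.719% of all genes passed in either direction. Its immune-rich values overlapped between the treatments, whereas in the other spots both antibody sections lay above both ICI-alone sections. This call was lost without the atrial-rich spots (adjusted p = 0.0549), without the antibody section of batch 1 (0.0678), without the ICI-alone section of batch 2 (0.874), with scaling by library size alone (0.0742), at 20% of spots (0.190) and scaled to sarcomere UMIs (log2 -1.55, adjusted p = 1.00). For Kcnip2 the difference was -1.33 ± 0.53 (adjusted p = 0.277), and for the other 7 members it lay between -0.79 (Kcna5) and 0.06 (Scn4b), none passing.

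Distance from the nearest immune-rich spot was then counted in steps on the hexagonal spot grid and the levels described with no test, as CPM of all UMIs in the bin without TMM. Every member had its lowest CPM in the immune-rich spots of each section, and all but Kcnq1 had their highest at 6 or more steps in all 4 sections. Without the atrial-rich spots Kcnj3 in the antibody section of batch 2 was at 11.03 CPM in immune-rich spots and 9.66 CPM at 1 step. Kcnip2 climbed over the whole range: with the antibody it was at 5.14 and 11.9 CPM in immune-rich spots, 24.1 and 32.1 at 1 step, 71.7 and 67.9 at 2 steps, 153 and 114 at 3 to 5 steps and 333 and 191 at 6 or more. With ICIs alone it was at 8.05 and 2.93, 16.8 and 13.3, 34.0 and 34.5, 75.5 and 67.2, and 183 and 120 CPM in the same bins. The level at 1 step was thus several times below the far myocardium in every section. Kcnq1 in the antibody sections was at 78.9 and 69.4 CPM at 3 to 5 steps and at 63.5 and 66.7 CPM at 6 or more steps. With ICIs alone it was at 87.1 and 82.4 CPM at 3 to 5 steps and at 80.5 and 105.4 CPM at 6 or more, so it was highest in the farthest bin in the batch 2 section alone.

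**Figure D3:**
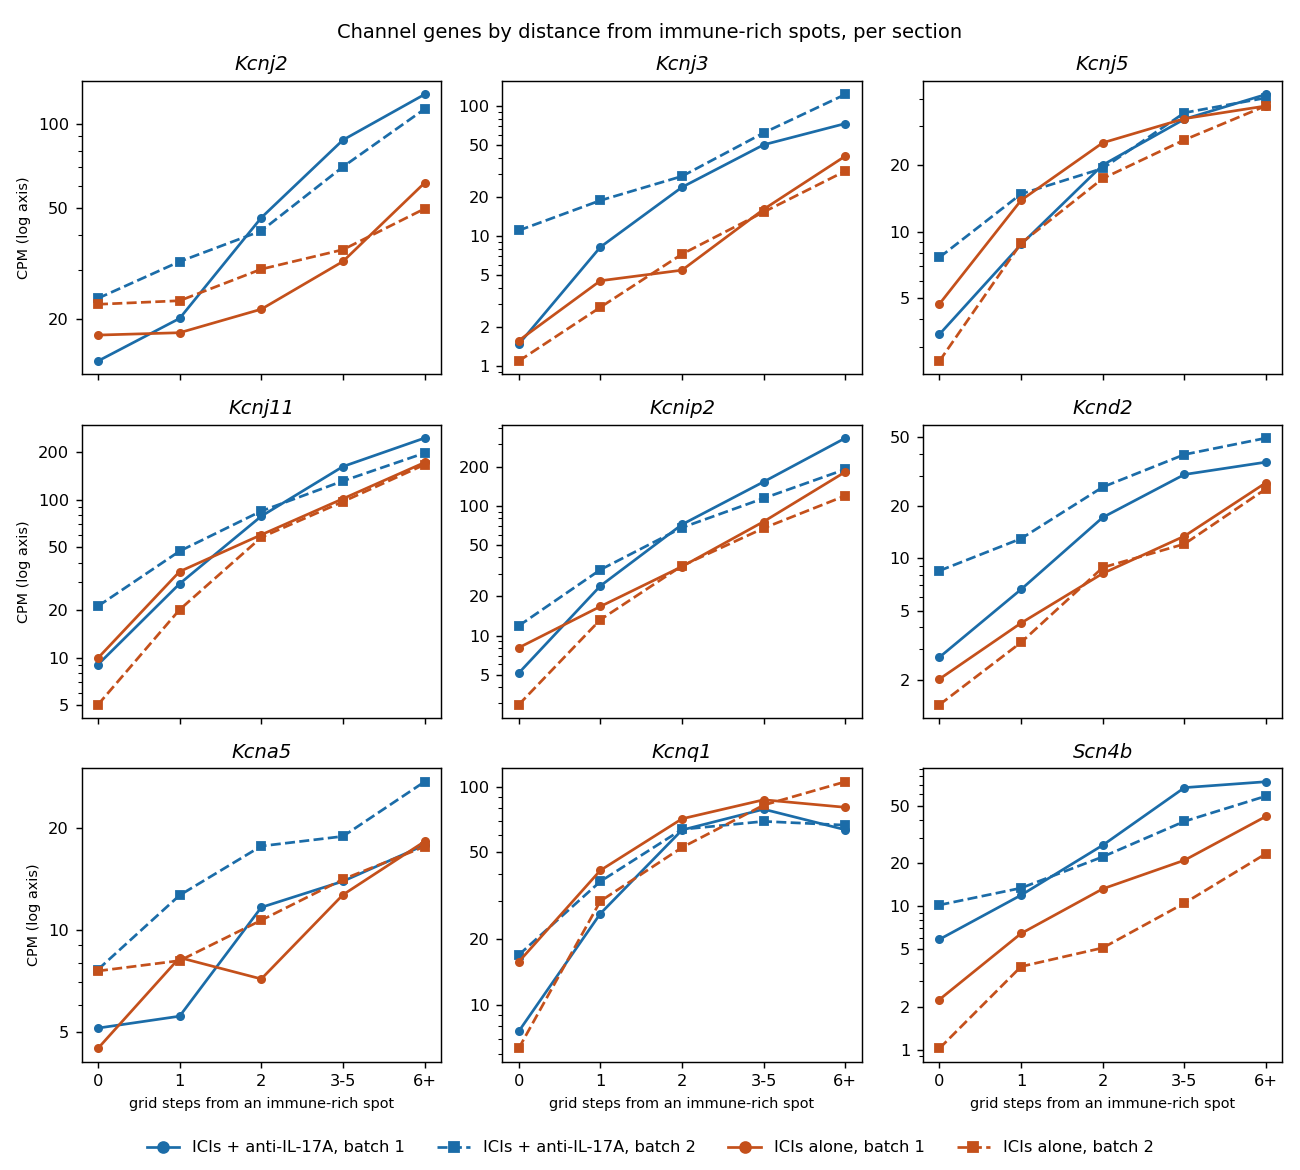
CPM (log axis) of each member by grid steps from the nearest immune-rich spot, with a line per section (ICIs plus antibody in blue, ICIs alone in orange; solid, batch 1; dashed, batch 2). All members are lowest in immune-rich spots, and the blue lines of Kcnj2 part from the orange lines from 2 steps on. The share of all genes that part in single bins is not given.

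For Kcnj2 the treatments overlapped in CPM in immune-rich spots and were apart at 3 to 5 and at 6 or more steps. The share of all genes apart in single distance bins is not given here, so this gap cannot be weighed against it. The interaction call for Kcnj2 was lost in several alternatives, as given above. Kcnj2 was at 14.2 and 23.8 CPM in immune-rich spots of the antibody sections and at 17.6 and 22.6 CPM in those of the ICI-alone sections. At 3 to 5 steps it was at 87.4 and 70.1 CPM with the antibody and at 32.2 and 35.5 CPM with ICIs alone, and at 6 or more steps at 127 and 113 CPM against 61.4 and 49.7 CPM. Relative to sarcomere UMIs, Kcnj2 with ICIs alone was highest in the immune-rich spots (19.98 and 44.2 per 10000) and at 6.99 and 6.44 in the farthest bin. With the antibody it was at 21.8 and 14.4 in the immune-rich spots and at 12.2 and 13.1 in the farthest bin.

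Kcnj3, Kcnd2 and Scn4b were above in both antibody sections in all 5 bins per sarcomere UMI, as were 0.6% of all genes, and Kcnq1 was below in both in all 5, as were 2.52%. In CPM, Kcnd2 and Scn4b were above in both in all 5 bins, as were 5.58% of genes. The antibody over ICI-alone ratio of means lay between 2.29 and 3.15 for Kcnj3, between 1.44 and 2.16 for Kcnd2, between 1.77 and 3.35 for Scn4b and between 0.607 and 0.793 for Kcnq1, all per sarcomere UMI. The same 4 members stayed apart in all 5 bins without the atrial-rich spots, as did 0.574% of all genes above and 2.71% below, but the ratios of Kcnj3 then lay between 1.47 and 2.56. At 6 or more steps Kcnj3 was at 7.03 and 14.3 per 10000 sarcomere UMIs with the antibody, or 7.03 and 5.94 without those spots, and at 4.69 and 4.10 with ICIs alone. Scn4b at 6 or more steps was at 7.04 and 6.81 per 10000 sarcomere UMIs with the antibody and at 4.80 and 3.01 with ICIs alone. In immune-rich spots Scn4b was at 9.03 and 6.18, against 2.55 and 2.00, on 24 and 12 against 20 and 15 UMIs. Kcnj3 there was at 2.26 and 6.69, against 1.78 and 2.13, on 6 and 13 against 14 and 16 UMIs. Its groups are thus apart in that bin by a margin that rests on very few molecules. Kcnd2 there was at 4.14 and 5.15, against 2.29 and 2.79, on 11 and 10 against 18 and 21 UMIs. Kcnq1 at 6 or more steps was at 6.08 and 7.77 with the antibody and at 9.16 and 13.7 with ICIs alone. Kcna5 overlapped between the treatments in all 5 bins per sarcomere UMI, and in CPM in all but the bin at 2 steps.

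**Figure D4:**
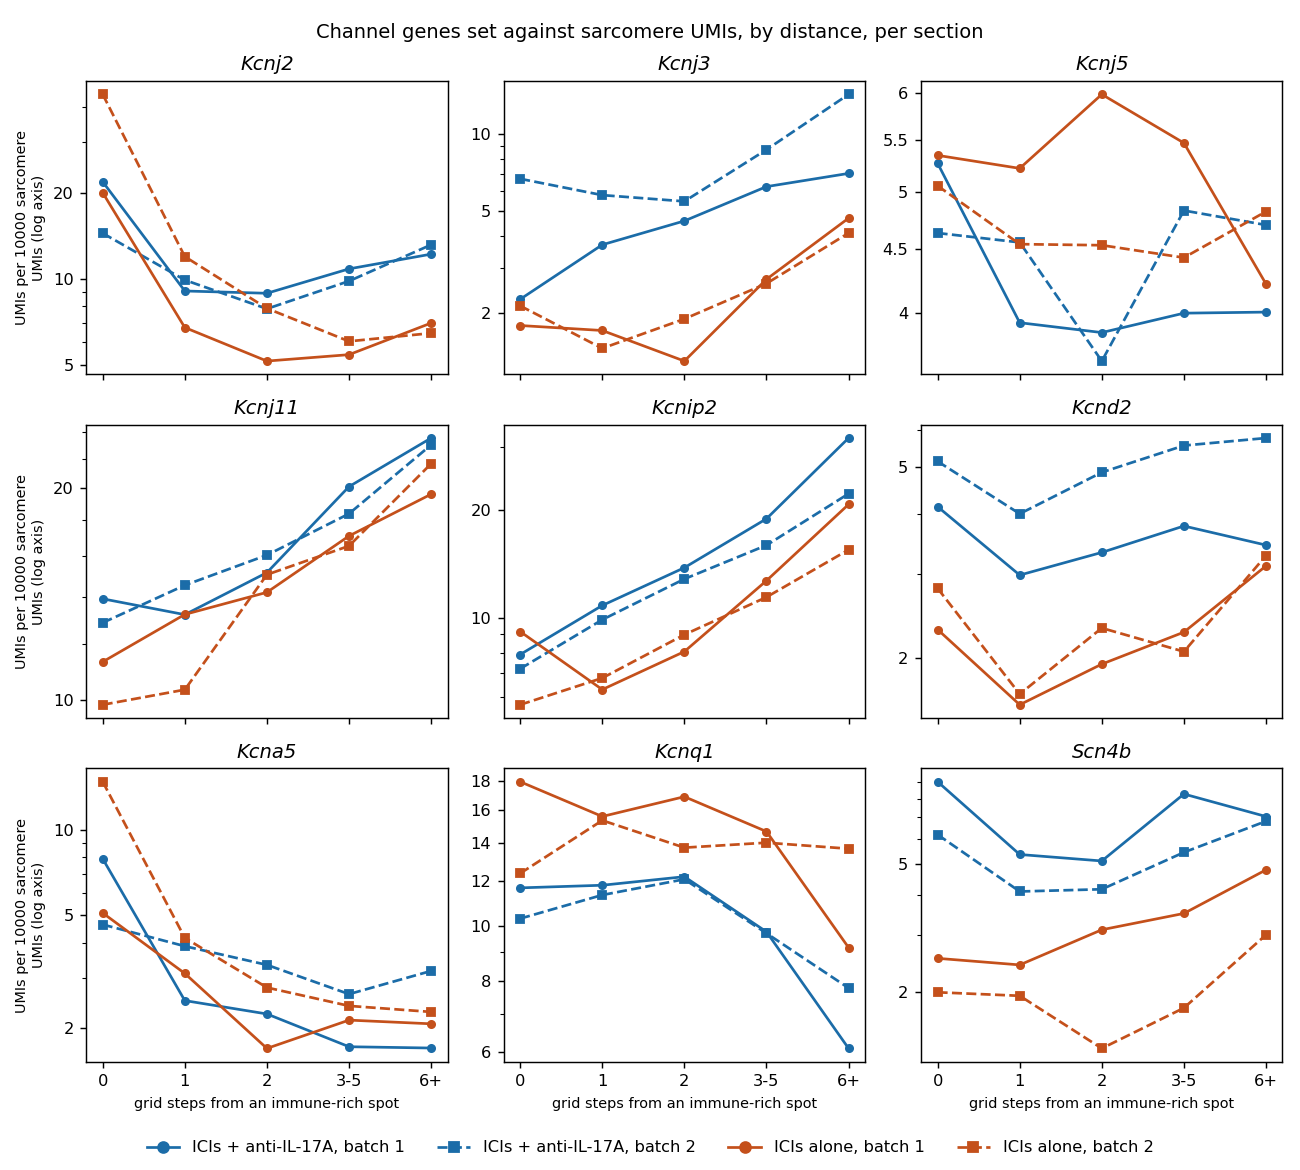
UMIs of each member per 10000 sarcomere UMIs (log axis) by grid steps from the nearest immune-rich spot, with a line per section, colours and line styles as for the CPM plot. Kcnip2 and Kcnj11 are highest in the farthest bin on this scale as well, Kcnj2 is highest in immune-rich spots of all 4 sections, and Kcnj5 stays between 3.66 and 5.98.

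Remote ventricular spots, at least 4 steps from any immune-rich spot and not atrial-rich, numbered 2035 and 1764 in the antibody sections and 1505 and 1212 in the ICI-alone sections. None of the 9 members passed between treatments there, nor did any of the 15115 genes tested (0% called by edgeR; 3295 genes, and 7 of the members, had an unadjusted p under 0.05). With batch as a block, Kcnj2, Kcnj3, Kcnj11, Kcnip2, Kcnd2 and Scn4b were higher with the antibody, against 6.48% of all genes. Kcnj2 had the largest statistic, at 129.4 and 95.8 CPM with the antibody and at 55.7 and 42.4 CPM with ICIs alone (log2 1.26 ± 0.21, adjusted p = 0.126 by edgeR's quasi-likelihood test, or 0.000574 with the block). Per 10000 sarcomere UMIs its remote values were 12.1 and 12.3 with the antibody and 6.58 and 6.23 with ICIs alone, with little spread within either group. Kcnq1 was at 68.4 and 61.5 CPM with the antibody and at 88.7 and 92.7 CPM with ICIs alone (log2 -0.42 ± 0.14, adjusted p = 0.171). Counted from 2 steps on, Kcnj2 and Kcnd2 passed, each with an adjusted p of 0.0450, where 0.604% of all genes were higher. Muscle content still differed in these spots, with sarcomere lists summing to 102594 and 84546 CPM against 80169 and 69133 CPM, and so did the fibroblast list, with 2195 and 2783 CPM against 5908 and 12828 CPM.

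Spots were also sorted into 5 bins of their sarcomere share, numbered 1 (lowest) to 5, with limits at 3.06%, 6.21%, 8.57% and 10.04% of UMIs, so that treatments could be set side by side at like muscle content. In bin 5 sarcomere UMIs were 11.1% and 10.9% in the antibody sections and 10.9% and 10.8% in the ICI-alone sections. Kcnj2 there was at 134 and 148 CPM with the antibody and at 88.2 and 72.8 CPM with ICIs alone, and its groups also stayed apart, in the same direction, in bins 2, 3 and 4. In bin 1 they were apart the other way per sarcomere UMI, at 11.7 and 9.90 per 10000 with the antibody and 12.1 and 18.5 with ICIs alone. The share of all genes apart in single bins is not given here, so these gaps of Kcnj2 cannot be weighed against it. Scn4b was above in both antibody sections in all 5 bins, with 71.6 and 55.3 CPM against 50.5 and 25.1 CPM in bin 5, as were 5.37% of all genes in CPM and 2.97% per sarcomere UMI. Kcnq1 was below in both in all 5 bins per sarcomere UMI, as were 1.62% of all genes, with 5.89 and 5.84 per 10000 against 6.72 and 9.43 in bin 5.

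With all spots in, the groups of Kcnip2 and Kcnj11 overlapped in CPM in bins 1 and 5. They were apart, higher with the antibody, in bins 2, 3 and 4. For these single bins too, the share of all genes apart is not given. Kcnip2 in bin 5 overlapped, with 348 and 247 CPM in the antibody sections and 289 and 230 CPM in the ICI-alone sections. The ratio of its antibody to its ICI-alone mean was 1.80 in bin 2, 1.43 in bin 3 and 1.36 in bin 4, against 1.15 in bin 5. Kcnj11 was at 254 and 213 CPM against 226 and 219 CPM in bin 5, and its ratio was 1.16 in bin 2, 1.16 in bin 3 and 1.15 in bin 4. Without the atrial-rich spots Kcnj11 overlapped in bin 2, at 73.4 and 66.1 CPM with the antibody and 70.1 and 68.2 CPM with ICIs alone (ratio 1.01). In bin 5 Kcnj5 was at 44.3 and 41.8 CPM with the antibody and at 45.4 and 39.6 CPM with ICIs alone. Kcnj3 in bin 2 was at 11.6 and 110 CPM with the antibody, with the higher value in the section that holds the atrial-rich spots, and at 8.34 and 7.79 CPM with ICIs alone. Without those spots it was at 11.6 and 10.96 CPM with the antibody in that bin.

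**Figure D5:**
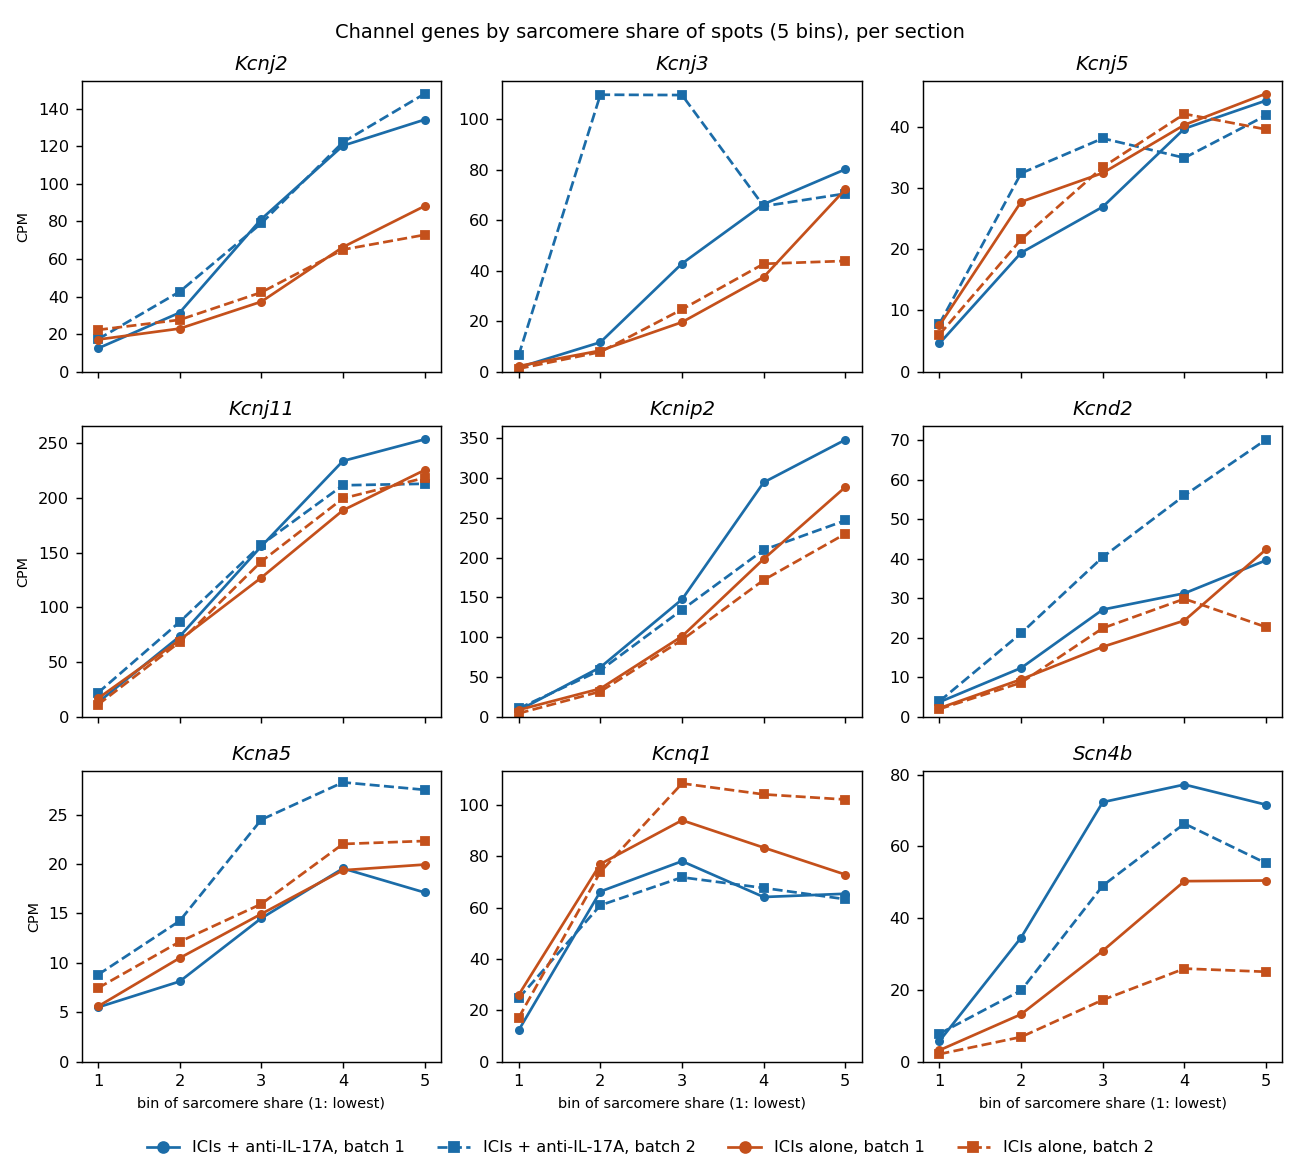
CPM of each member by bin of the sarcomere share of spots (1 lowest, 5 highest), with a line per section, colours and line styles as for the distance plots. In bin 5 blue and orange lines overlap for Kcnj5 and Kcnj11 and are apart for Kcnj2 and Scn4b, and the antibody section of batch 2 peaks early for Kcnj3.

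At the tissue edge (spots with fewer than 6 neighbours under tissue) no member passed against the interior in edgeR's quasi-likelihood test, where 1.80% of all genes did, and Kcnj3, Kcnd2 and Kcna5 had an unadjusted p under 0.05. Kcnj3 in the antibody section of batch 2 was at 216 CPM at the edge and at 39.9 CPM in the interior, and 156 of the 163 atrial-rich spots lie at that edge. The log2 fold change of Kcnj3 was 0.95 (adjusted p = 0.217) and 0.23 without those spots (adjusted p = 0.315). In the other 3 sections Kcnj3 was at 51.8, 29.8 and 14.0 CPM at the edge, against 60.5, 20.8 and 10.8 CPM in the interior (antibody batch 1, ICI alone batches 1 and 2). Kcnd2 was at 34.3 and 40.6 CPM at the edge of the antibody sections and at 22.8 and 11.9 CPM at that of the ICI-alone sections, against 30.3, 38.0, 15.4 and 9.42 CPM in the interiors (log2 0.37 ± 0.10, adjusted p = 0.111).

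Other channel genes were read from lists chosen with earlier results of these data known. Of 29 other potassium channel genes tested, 6 were higher with the antibody and 1 lower over whole sections (median log2 0.64, against 0.08 over all genes), where 3.03% of all genes were higher and 8.81% lower. Kcnv2, a silent Kv subunit, was higher (log2 1.97), as were Kcnc1 (1.40) and Kcnn2 (1.05), while the beta subunit Kcnab2 was lower (-0.87). Among 17 sodium channel genes and partners, Scn4a (1.79) and the anchoring protein gene Ank2 (0.99) were higher. Of 13 pacemaker channel and gap junction genes, Hcn2 (1.21), Hcn4 (1.26) and the connexin gene Gjd3 (1.56) were higher and none lower. Levels were low for Hcn4 (0.60 to 2.00 CPM over the sections), Gjd3 (1.22 to 5.47 CPM) and Kcnc1 (0.47 to 1.42 CPM). Of 19 genes of transcriptional regulators of channels, 5 were higher, among them Klf15 (0.75), which controls the daily rhythm of Kcnip2 in mice, and Nr3c2 (1.43), Tbx5 (1.15) and Esrrg (1.01). Gjd3 and Tbx5 were highest in the antibody section of batch 2, and their values without its atrial-rich spots are not given. Of 7 potassium and proton channel genes typical of leukocytes, Kcnk13 was lower (-0.97) and none higher. Scaled to sarcomere UMIs, where 0.138% of all genes were higher and 11.2% lower, few of these calls were made. On that scale 0 of the 29 potassium channel genes were higher and 1 lower, 1 of the 17 sodium channel genes was higher and 0 lower, 0 of the 13 pacemaker and gap junction genes were higher and 1 lower, 0 of the 19 regulators passed, and 3 of the 7 leukocyte genes were lower.

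In immune-rich spots, 14 of 27 other potassium channel genes were lower and 2 higher, as were 12 and 0 of 17 sodium channel genes, 10 and 1 of 13 pacemaker and gap junction genes, and 17 and 0 of 19 regulators, against 26.3% of all genes lower and 26.9% higher. Kcnk3 (log2 -3.50), Abcc8 (-3.13) and Kcnj12 (-2.72) were lower by amounts within the range of the 9 members, and so were the regulators Klf15 (-3.26) and Irx4 (-3.17). The leukocyte list ran the other way, with 4 of 7 higher: Hvcn1 (2.46), Kcnn4 (2.20), Kcna3 (2.06) and Kcnk13 (1.38). Scaled to sarcomere UMIs, where 96.6% of all genes were higher, the channel and regulator lists had calls in the other direction: 18 of the 27 potassium channel genes, 12 of the 17 sodium channel genes, 10 of the 13 pacemaker and gap junction genes, 12 of the 19 regulators and all 7 leukocyte genes were higher, and none was lower. The medians on that scale were 1.92, 1.57, 1.37, 1.26 and 4.67 on the log2 scale in the same order, against 3.43 over all genes.

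The authors' deposited table gives Moran's I, a score of how much a gene's level is shared by neighbouring spots, for each gene and section. In the authors' deposited table Kcnip2 had the highest I of the members in every section but the antibody section of batch 2, with 0.616 and 0.343 with the antibody and 0.652 and 0.591 with ICIs alone. Kcnj3 led in that section at 0.407, against 0.252 in the antibody section of batch 1 and 0.358 and 0.224 with ICIs alone in the authors' deposited table. Kcna5 was lowest of the members in each section in the authors' deposited table, with 0.038 and 0.038 with the antibody and 0.047 and 0.019 with ICIs alone. All 9 members had an adjusted p of at most 0.00227 there in every section, where 56.2% and 39.0% of genes were under 0.05 in the antibody sections and 54.1% and 53.6% in the ICI-alone sections.

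Across the 20 combinations of section and distance bin, which share libraries and muscle content, the members were correlated with each other (Pearson's r of log2 CPM from 0.644 for Kcnj2 and Kcnq1 to 0.988 for Kcnip2 and Kcnj11). Their r with the sarcomere list ran from 0.815 for Kcnj2 and 0.847 for Kcna5 to 0.993 for Kcnj11. The genes most like each member, among 9504 genes of at least 10 CPM, were Tmem65 for Kcnj2 (r = 0.966), Doc2g for Kcnj3 (0.986) and for Kcnd2 (0.988), Cox6a2 for Kcnj5 (0.995), Txlnb for Kcnj11 (0.997), Pxmp2 for Kcnip2 (0.995), Ccpg1 for Kcna5 (0.965), Chrm2 for Kcnq1 (0.989) and Rbfox1 for Scn4b (0.980). These are descriptions over points that are not independent.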

How the data were processed

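Processed Visium data of 4 heart sections were used, 2 per group, grouped by the labels' treatment field. Raw UMI counts of every gene in each tissue-covered spot were deposited, made with Space Ranger 2.1.0 per the file headers. The submitters' processing notes name the build mm10 and Seurat 5.1.0. Levels are not compared between genes, since no source used here gives the probes. The authors also deposited a score (Moran's I) with a p-value per gene. Other deposited values are barcodes, which name slide positions (1670 of 3774 occur in all 4 sections), and grid positions.

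Counts were summed per section, spot class or bin. Genes passing filterByExpr were scaled by TMM and tested with edgeR 4.0.16 (R 4.3.3, limma 3.58.1) with Benjamini-Hochberg adjustment at 0.05, SEs being derived from the F statistic. Sarcomere scaling replaced library sizes by the UMIs of 19 contractile genes. DESeq2 1.42.0 served as an alternative. The common biological coefficient of variation was 17.0%. Position tables used Python 3.11.15, with 0.5 CPM added before logs for correlations. On simulated counts with 200 genes changed by 1.5 on the log2 scale, the fit recovered 99.5% for whole sections, 100% for spot classes and 72.0% for the interaction. It also called 6, 12 and 7 unchanged genes in the same order. The simulation set the coefficient of variation at 0.15 for every gene and changed only well-counted genes. Its rates therefore need not hold for genes of wider spread.

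Panel genes were left out of the tests of spot classes, and spots under 5000 UMIs belong to neither class. The labels give each batch number to 1 section of each group, which pairs the sections. Same-batch deviations correlated at 0.175 over 18817 genes. Named genes are all 9 members, up to 4 genes per list of other channels with the smallest p, and the most similar genes per member. Members and lists were chosen with earlier results of these data known. The alternatives were other scalings, filters, thresholds, distances and the batch block, and leaving out each section or the atrial-rich spots (for position values, chosen after seeing the data).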

Additional observations from a re-analysis of the deposited data

Results flagged for a closer look

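The difference of the immune-rich effect between treatments was tested for each member, and Kcnj2 passed it in the fit with all sections and spots. It did not pass in 6 of the 9 alternatives run (without the antibody section of batch 1 or the ICI-alone section of batch 2, at 20% of spots, without atrial-rich spots, by library size alone and scaled to sarcomere UMIs). Its log2 fold change of immune-rich over other spots was lower by -1.94 with the antibody than with ICIs alone (adjusted p = 0.0328, edgeR's quasi-likelihood test). Kcnj2 was at 124.9 and 87.0 CPM in the other spots of the antibody sections, against 49.2 and 38.2 CPM in those of the ICI-alone sections, while the immune-rich spots overlapped between treatments.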

How the results depend on the processing

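Counts are members past the adjusted threshold. Over whole sections the 3 became 6 with the replicate block and 6 with library size alone, and 2 to 7 when a section was left out (2 without the antibody section of batch 2, 7 without the ICI-alone section of batch 1). Scaled to sarcomere UMIs, the 1 became 6 with the replicate block, 6 with the block and no atrial-rich spots, 2 with the median ratio of sarcomere genes, and 0 without atrial-rich spots or with other muscle genes as the scale, and 0 to 4 when a section was left out. In remote spots the 0 became 6 with the replicate block, 5 with the block and sarcomere scaling, 2 from 2 or more steps, and 0 to 5 when a section was left out. The 3 of the sarcomere-scaled immune-rich comparison became 5 without Myh6 and Myh7 in the scale, and 0 to 5 when a section was left out. The 1 of the interaction became 2 at 5% of spots, 0 at 20%, without atrial-rich spots, by library size alone and by sarcomere scaling, and 0 to 4 when a section was left out. The 0 at the edge became 1 with sarcomere scaling, and 0 to 1 when a section was left out. The block together with either the atrial-rich spots or sarcomere scaling was chosen after seeing the data.

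Log2 fold changes that turned sign did not pass in any setting where they turned. Kcnq1 over whole sections was 0.063 at a filter of 10 CPM, and -0.34 to 0.090 when a section was left out. On the sarcomere scale Kcnj5 was 0.043 without Myh6 and Myh7 and 0.0013 with the median ratio, and Kcna5 was 0.070 and 0.028 in the same settings, and -0.53 to 0.25 when a section was left out. Kcnj5 in remote spots was -0.15 by sarcomere scaling, -0.15 with the block as well, and -0.070 to 0.34 when a section was left out. In immune-rich spots on the sarcomere scale, Scn4b was 0.39 at 5% of spots (-0.28 to 0.10 with a section left out), and Kcnd2 was -0.54 at 20% and -0.13 without Myh6 and Myh7 (-0.028 to 0.12). The cause of these changes was not tested. With 1 section left out, the lone section of a group is assumed to vary like the other group. Beyond these, depth limits the immune-rich values, which rest on 6 to 332 UMIs per member and section, and 2 sections per group limit every treatment comparison.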
